A study of Sus scrofa with 18 samples.

Results

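RNA levels of 10 genes of the maternal mRNA decay pathway were followed in cloned pig embryos: BTG4, CNOT6, CNOT6L, CNOT7, CNOT8, CPEB1, ZFP36L1, ZFP36L2, DCP1A and XRN1. Decay itself was not measured. The genes were taken by name for their known roles in the pathway, with earlier results of these data known. All 10 of 10 were found among the 24358 genes listed. The tables named 9 of them, and XRN1 was found by its identifier, ENSSSCG00000011678, since its row carries no symbol.

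An egg stores mRNA that is translated before the embryo transcribes its own genome, and this store is removed in steps as the embryo takes over. Removal usually starts with the shortening of the poly(A) tail by the CCR4-NOT complex, which is brought to mRNAs by adaptors and RNA-binding proteins. The shortened mRNA then loses its 5′ cap and is digested from the 5′ end, or it is digested from the 3′ end by the exosome. In the pig, the main wave of embryonic transcription begins around the 4-cell stage.

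The libraries come from embryos cloned by nuclear transfer, each with an ear cell of a Diannan miniature pig. This cell was fused to an oocyte that had been freed of its own chromosomes. The oocytes came from pre-pubertal ovaries of a slaughterhouse. The cloned zygotes were either vitrified, which is rapid cooling to a glass-like state, then warmed and cultured, or were cultured fresh. Each treatment has 3 libraries per stage, 18 in all, from 2-cells at 24 h after chemical activation (4 embryos per library), 4-cells at 48 h (2 embryos) and blastocysts at 144 h (1 embryo). All groups share the source of the donor cells and oocytes, the enucleation, the activation and the culture medium. Whether the groups shared the same batches of cells and oocytes is not stated. Stage, hours in culture and embryos per library change together, so they cannot be told apart. The embryos at each stage are those that reached it.

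Levels are in FPKM, the mapped fragments of a gene scaled by transcript length and by library size. FPKM is a share of the sequenced RNA. A lower value can come with fewer cells of a type, less of the RNA per cell, or more of other RNA. The kit named in the study's methods primes on poly(A) tails, so a change of tail length may also change a value. These cannot be told apart. Between 7551 and 8841 genes reached 1 FPKM per library. Of the stage markers, 6 oocyte-derived genes summed to 2535-4541 FPKM in 2-cells, 1135-1623 FPKM in 4-cells and 1.21-4.27 FPKM in blastocysts, and 7 trophectoderm genes reached 2096-4114 FPKM in blastocysts. The 4 inner cell mass markers did not peak in blastocysts, where they summed to 8.07-23.9 FPKM, against 34.4-446 FPKM in 4-cells and 9.06-14.5 FPKM in 2-cells. NANOG had at most 3.84 FPKM in a blastocyst and at least 8.97 FPKM in a 4-cell library, and SOX2 had at most 0.209 FPKM in a blastocyst. Of 8 cumulus and granulosa cell markers, 7 or 8 stayed under 1 FPKM in every group, and their sum was at most 5.58 FPKM in any library. The 8 markers of ear fibroblasts, the nuclear donor, summed to 3.20-4.52 FPKM in 2-cells, 5.41-8.73 FPKM in 4-cells and at most 0.690 FPKM in blastocysts. Of these 8, 6 stayed under 1 FPKM in each 2-cell group, 4 in vitrified 4-cells, 3 in fresh 4-cells and 8 in each blastocyst group. The source of this RNA was not tested.

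Vitrified 4-cell replicate 3 stood apart. Its mean correlation with the other 4-cell libraries was 0.763, against 0.869-0.892 for the rest. Its 4 inner cell mass markers summed to 446 FPKM, against 34.4 and 42.8 FPKM in the other vitrified 4-cells and 37.0, 35.8 and 92.7 FPKM in fresh 4-cells. TFAP2C, 1 of the 7 trophectoderm markers, was at 175 FPKM, against 4.32-53.2 FPKM in the remaining 4-cell libraries, while each of the other 6 was under 1 FPKM in it. The oocyte-derived sum of this library, 1135 FPKM, was below the 1465-1623 FPKM of the rest. The 4-cell comparisons of the 10 genes were therefore also run without this library, and the part of these marker differences in them was not tested.

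BTG4 (ENSSSCG00000015020), an adaptor that ties CCR4-NOT to the translation machinery and is needed for maternal mRNA clearance in the mouse, was the most abundant of the genes in cleavage-stage embryos. Vitrified 2-cells had 3085, 3026 and 3047 FPKM, and fresh 2-cells had 3021, 2715 and 3056 FPKM. In vitrified 4-cells the values were 686, 727 and 131 FPKM, and in fresh 4-cells 690, 1140 and 1081 FPKM. BTG4 ranked between 18 and 24 among all genes in 2-cell libraries and between 42 and 502 in 4-cell libraries. Vitrified blastocysts had 0.0001, 0.0811 and 0.379 FPKM and fresh blastocysts 0.0001, 0.422 and 0.444 FPKM, where 0.0001 is the value that the tables hold in place of 0. The ranges of the 3 stages did not touch.

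The catalytic subunits of CCR4-NOT come in related pairs, CNOT6 with CNOT6L and CNOT7 with CNOT8, of which each complex holds a member from either pair. CNOT7 (ENSSSCG00000006983) was the most abundant of them in 2-cells, with 92.8, 73.7 and 105 FPKM in vitrified 2-cells and 119, 88.0 and 87.1 FPKM in fresh 2-cells. It had 103, 107 and 45.3 FPKM in vitrified 4-cells and 129, 120 and 96.2 FPKM in fresh 4-cells. It had 13.8, 14.1 and 13.8 FPKM in vitrified blastocysts and 9.79, 8.06 and 8.05 FPKM in fresh blastocysts. CNOT7 overlapped between 2-cells and 4-cells, vitrified 4-cell replicate 3 was the lowest of these, and all 6 blastocysts were below all earlier embryos.

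CNOT8 (ENSSSCG00000017067), the alternative to CNOT7, had its highest levels in 4-cells. Vitrified 2-cells had 18.2, 14.7 and 16.9 FPKM and fresh 2-cells 15.7, 22.2 and 15.8 FPKM. Vitrified 4-cells had 30.2, 27.5 and 71.8 FPKM and fresh 4-cells 39.8, 30.2 and 33.2 FPKM. Vitrified blastocysts had 16.4, 11.6 and 6.70 FPKM and fresh blastocysts 6.69, 5.27 and 5.22 FPKM. All 4-cell libraries were above all 2-cell libraries, and the highest value came from vitrified 4-cell replicate 3.

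CNOT6L (ENSSSCG00000008989), the deadenylase subunit linked to maternal mRNA clearance in mouse oocytes, was above its paralog CNOT6 in every 2-cell and 4-cell library. CNOT6L had 11.2, 12 and 11.6 FPKM in vitrified 2-cells and 10.6, 12.6 and 13.6 FPKM in fresh 2-cells. In 4-cells it had 24.3, 15.3 and 9.49 FPKM after vitrification and 18.2, 14.6 and 12 FPKM in fresh embryos, overlapping the 2-cells. All 6 blastocysts were near or under 1 FPKM, at 0.535, 1.02 and 0.865 FPKM (vitrified) and 0.667, 0.509 and 0.532 FPKM (fresh).

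CNOT6 (ENSSSCG00000014009) was the lowest of the catalytic subunits before the blastocyst. It had 3.65, 5.06 and 3.36 FPKM in vitrified 2-cells and 4.19, 4.71 and 4.69 FPKM in fresh 2-cells. It had 6.0, 5.94 and 5.06 FPKM in vitrified 4-cells and 3.95, 4.86 and 5.80 FPKM in fresh 4-cells. Values under 1 FPKM followed in blastocysts, at 0.569, 0.700 and 0.881 FPKM (vitrified) and 0.775, 0.778 and 0.829 FPKM (fresh).

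CPEB1 (ENSSSCG00000001808), which binds cytoplasmic polyadenylation elements and controls tail length and translation of stored mRNAs, followed the course of BTG4. It had 74.4, 83.2 and 81.6 FPKM in vitrified 2-cells and 75.2, 66.7 and 70.6 FPKM in fresh 2-cells. Vitrified 4-cells had 37.7, 37.8 and 6.34 FPKM, and fresh 4-cells 46.0, 45.4 and 30.9 FPKM. No blastocyst library passed 0.195 FPKM, and CPEB1 was listed at 0.0001 FPKM in 1 vitrified and 1 fresh blastocyst. As with BTG4, the 3 stages did not overlap, and vitrified 4-cell replicate 3 was the lowest 4-cell library.

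ZFP36L1 (ENSSSCG00000028304) and ZFP36L2 (ENSSSCG00000038549), which bind AU-rich elements and recruit CCR4-NOT, were low throughout, and their stages overlapped. ZFP36L1 had 2.26, 2.20 and 3.58 FPKM in vitrified 2-cells and 4.74, 2.47 and 0.854 FPKM in fresh 2-cells. In 4-cells its range was 0.487-2.02 FPKM after vitrification and 1.02-2.35 FPKM in fresh embryos, and in blastocysts 2.37-5.19 FPKM and 2.20-2.45 FPKM. ZFP36L2 ranged over 2.26-3.42 FPKM in vitrified and 1.59-4.56 FPKM in fresh 2-cells, and over 0.511-1.80 FPKM in vitrified and 0.873-1.77 FPKM in fresh 4-cells. In blastocysts ZFP36L2 had 0.491-1.97 FPKM after vitrification and 0.662-1.57 FPKM in fresh embryos. Near 1 FPKM, the spread between replicates was as large as the differences between stages.

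DCP1A (ENSSSCG00000022616), a cofactor of the decapping enzyme DCP2, was highest in 4-cells. It had 10.4, 8.11 and 9.74 FPKM in vitrified 2-cells and 11.4, 15.0 and 11.2 FPKM in fresh 2-cells. It had 15.1, 11.5 and 41.9 FPKM in vitrified 4-cells and 20.4, 19.2 and 28.5 FPKM in fresh 4-cells. It had 7.14, 6.78 and 8.61 FPKM in vitrified blastocysts and 4.97, 4.01 and 4.52 FPKM in fresh blastocysts. The vitrified libraries lay below all fresh libraries in 2-cells and above them in blastocysts.

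XRN1, the exonuclease that digests decapped mRNA from the 5′ end, had a similar course. Vitrified 2-cells had 11.9, 15.2 and 15.6 FPKM and fresh 2-cells 11.1, 18.9 and 20.5 FPKM. Vitrified 4-cells had 23.7, 19.8 and 41.9 FPKM and fresh 4-cells 31.5, 26.7 and 19.5 FPKM. Vitrified blastocysts had 1.38, 5.55 and 6.69 FPKM and fresh blastocysts 4.35, 3.80 and 2.85 FPKM, all below the 2-cells.

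**Figure D1:**
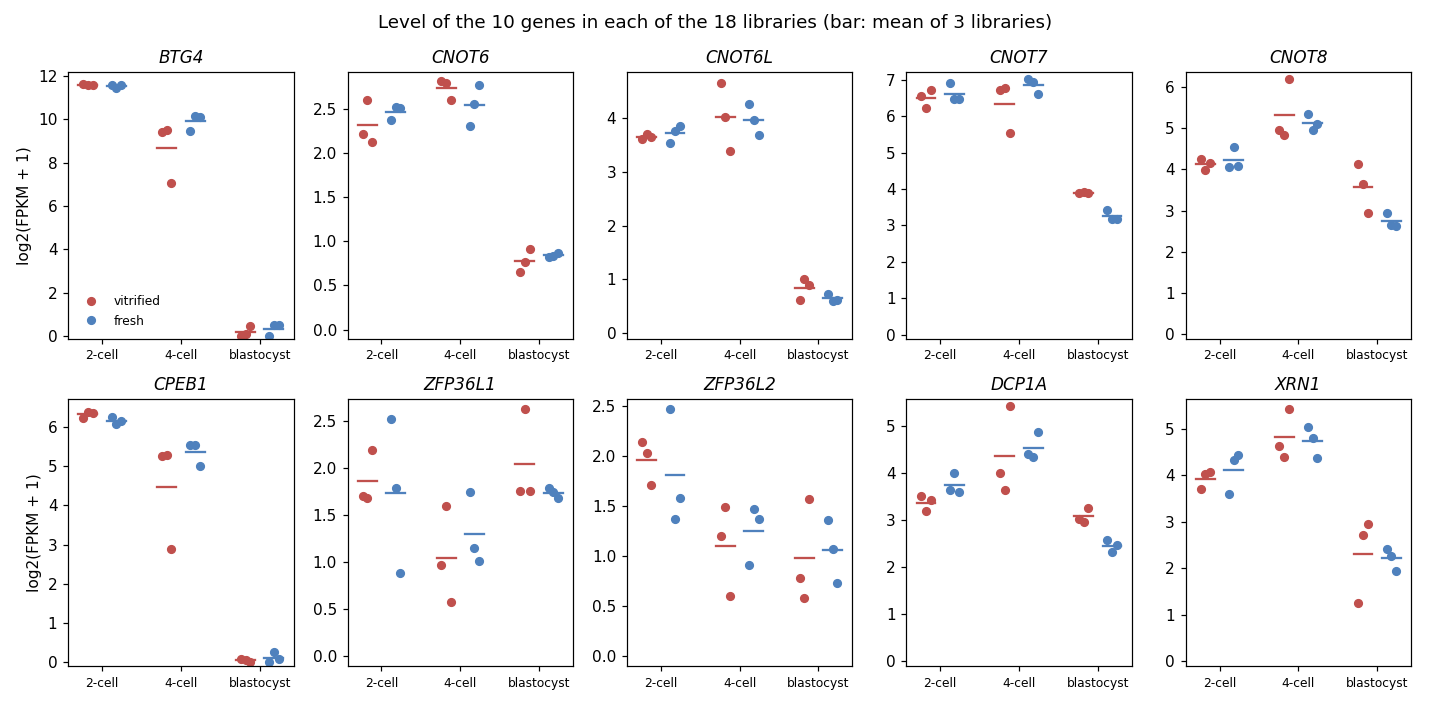
Level of each gene as log2(FPKM + 1) in the 18 libraries, by stage, with vitrified libraries (red) left of fresh ones (blue) and a bar at the mean of 3 libraries; each panel has its own vertical scale. BTG4 and CPEB1 step down at each stage, CNOT8, DCP1A and XRN1 are highest in 4-cells, and ZFP36L1 and ZFP36L2 overlap between stages.

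Stages were compared on log2(FPKM + 1) with limma across all 18 libraries, averaging the vitrified and the fresh difference. A gene was called at an adjusted p under 0.05 with a log2 change beyond 1. The added 1 FPKM makes the change of low genes look smaller than it is.

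From the 2-cell to the 4-cell stage, the adaptor and the tail-length regulator were lower and a catalytic subunit was higher over all 18 libraries. Of these calls, only that of BTG4 stood in fresh embryos alone or without vitrified 4-cell replicate 3. BTG4 was lower in 4-cells by a log2 change of −2.27 ± 0.33 (SE, limma adjusted p = 8.8e-05), with a mean of 743 FPKM in 4-cells against 2992 FPKM in 2-cells. CPEB1 was lower by −1.33 ± 0.32 (limma adjusted p = 0.0044), with 34.0 FPKM in 4-cells against 75.3 FPKM in 2-cells. CNOT8 was higher by 1.05 ± 0.25 (limma adjusted p = 0.0041), with 38.8 FPKM in 4-cells against 17.3 FPKM in 2-cells. These were 3 of 10 genes called, against 16.9% of the 11361 genes tested, with 8.83% of all genes higher and 8.09% lower. The same 3 did not overlap between 4-cells and 2-cells, as was so for 6.52% of all genes on the higher and 7.38% on the lower side.

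The other 7 genes were not called between 4-cells and 2-cells. DCP1A had a log2 change of 0.89 (limma adjusted p = 0.012) and ZFP36L2 of −0.71 (limma adjusted p = 0.030), both short of the fold threshold. XRN1 had 0.75 (limma adjusted p = 0.053) and ZFP36L1 −0.62 (limma adjusted p = 0.087). CNOT6L at 0.31, CNOT6 at 0.25 and CNOT7 at 0.03 were the smallest. The median of the 10 genes was 0.14, and that of all genes tested −0.06.

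Only the BTG4 call stood without vitrified 4-cell replicate 3. CPEB1 then had −0.93 and CNOT8 0.84, the other 7 genes lay between −0.59 (ZFP36L2) and 0.63 (DCP1A), and 7.61% of all genes were called higher and 6.29% lower. In fresh embryos alone BTG4 was again the only gene of the 10 called, at −1.63 (limma adjusted p = 0.035), against 8.52% of all genes. There, CPEB1 had −0.80 (limma adjusted p = 0.30) and CNOT8 0.91 (limma adjusted p = 0.12). CNOT8 also stopped just short of the threshold, at 1.00, without fresh 4-cell replicate 1, and DCP1A passed it at 1.07 without vitrified 4-cell replicate 2.

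From the 4-cell to the blastocyst stage, 8 of the 10 genes fell, and none of these 8 overlapped between the 6 blastocysts and the 6 4-cell libraries. Of all genes tested, 61.8% were called, 24.8% higher and 37% lower, and 33% were lower without overlap. The median log2 change was −2.29 for the 10 genes and −0.48 for all genes tested. All 8 lower calls held in every alternative that was run, including both other scalings and the fit without vitrified 4-cell replicate 3.

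BTG4 had a log2 change of −9.01 ± 0.33 (SE, limma adjusted p = 2.9e-13) and CPEB1 of −4.84 ± 0.32 (limma adjusted p = 3.3e-10). For both, the size depends on the added 1 FPKM, since blastocysts were near 0. Among the catalytic subunits, the log2 change was −3.25 ± 0.20 for CNOT6L, −3.01 ± 0.22 for CNOT7, −2.07 ± 0.25 for CNOT8 and −1.83 ± 0.15 for CNOT6. Their levels in blastocysts nevertheless differed, since CNOT7 and CNOT8 stayed at 5 FPKM or more in every blastocyst while CNOT6 and CNOT6L did not pass 1.02 FPKM. XRN1 had −2.51 ± 0.28 and DCP1A −1.68 ± 0.25 (limma adjusted p = 8.7e-06).

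The AU-rich element binding proteins were the exceptions. ZFP36L1 had a log2 change of 0.72 ± 0.27 in blastocysts over 4-cells (SE, limma adjusted p = 0.022), short of the fold threshold, and ZFP36L2 had −0.16 (limma adjusted p = 0.55). Without vitrified 4-cell replicate 3 they had 0.60 (limma adjusted p = 0.051) and −0.28. The ZFP36L1 result depends on the scale: it passed the threshold with quantile normalization (1.17), with scaling by the median ratio (1.17), with 0.1 FPKM added in place of 1 (1.10), and in vitrified libraries alone (1.00). The median over all genes moved to −0.16 with quantile normalization and −0.10 with the median ratio, and 50.2% and 52.6% of the called genes were then higher, against 40.1% in FPKM as deposited. Both stage comparisons use the same 4-cell libraries, so their values are linked.

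**Figure D2:**
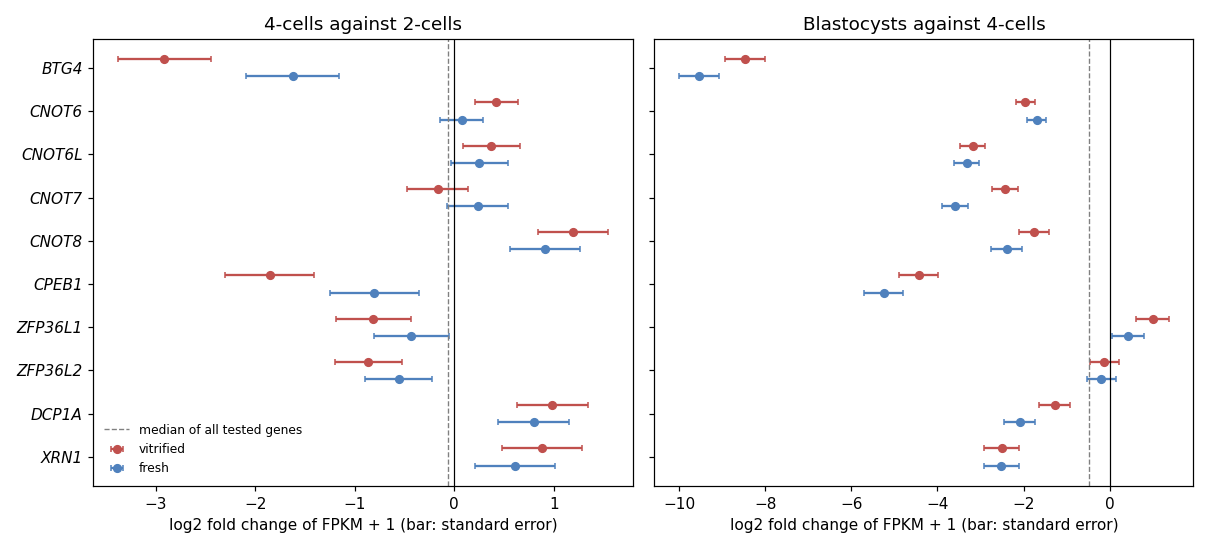
Log2 fold change of FPKM + 1 between neighbouring stages for each gene (points, with the standard error as a bar), for vitrified embryos (red, above) and fresh embryos (blue, below); the dashed line is the median of all genes tested. The left panel is 4-cells against 2-cells, where BTG4 and CPEB1 lie furthest left, and the right panel is blastocysts against 4-cells, where 8 genes lie left of −1 in both treatments.

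Vitrified and fresh embryos were compared within each stage, which is the comparison the study was designed for. Here a gene was called at an unadjusted p under 0.05 with a log2 change beyond 1, and limma adjusted p values are given beside it. The study used this threshold with edgeR. Here it was applied to limma on log2(FPKM + 1), so the calls are not those of the study. None of the 10 genes was called at any stage.

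In 2-cells, 0.45% of 8449 genes were called, 0 of them at an adjusted p under 0.05, and 317 (3.75%) had an unadjusted p under 0.05, none of them among the 10 genes. BTG4 was at 3053 ± 29.6 FPKM in vitrified and 2931 ± 188 FPKM in fresh 2-cells, and CPEB1 at 79.7 ± 4.69 FPKM in vitrified and 70.8 ± 4.25 FPKM in fresh 2-cells (SD, n = 3 each). Their log2 differences were 0.06 ± 0.15 and 0.17 ± 0.17 (SE). DCP1A alone was lower in all vitrified libraries, at 9.41 ± 1.17 FPKM against 12.5 ± 2.17 FPKM in fresh 2-cells, a log2 difference of −0.38 ± 0.21 (limma unadjusted p = 0.11). Of all genes, 5.72% were lower without overlap at this stage.

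In 4-cells, 3.46% of 8769 genes were called (303 genes, or 486 with the replicate number as a block), 1 of them at an adjusted p under 0.05. An unadjusted p under 0.05 was reached by 3.72% of all genes and by none of the 10. BTG4 had the largest difference of the 10, with 515 ± 333 FPKM in vitrified and 971 ± 245 FPKM in fresh 4-cells (SD, n = 3 each). Its log2 difference was −1.23 ± 0.65 (SE, limma unadjusted p = 0.089, adjusted p = 0.95), and the groups overlapped. Without vitrified 4-cell replicate 3 it was −0.42 (limma unadjusted p = 0.18). The call was reached without vitrified 4-cell replicate 2 (−1.66, limma unadjusted p = 0.038) and with the spread shared over all 18 libraries (limma unadjusted p = 0.017).

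The next differences in 4-cells rested on the same library. CPEB1 had 27.3 ± 18.1 FPKM in vitrified and 40.8 ± 8.57 FPKM in fresh 4-cells (SD, n = 3 each), a log2 difference of −0.89 (limma unadjusted p = 0.22) that was −0.09 without vitrified 4-cell replicate 3. CNOT7 had 85.2 ± 34.6 FPKM in vitrified and 115 ± 16.9 FPKM in fresh 4-cells, a log2 difference of −0.52 (limma unadjusted p = 0.30) that was −0.12 without it. The remaining 7 genes lay between −0.26 (ZFP36L1) and 0.19 (CNOT6 and CNOT8).

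Leaving out vitrified 4-cell replicate 3 moved several of these 7 as well. DCP1A had −0.18 with it and −0.72 without it (limma unadjusted p = 0.067, adjusted p = 0.80), where both remaining vitrified libraries were below all 3 fresh 4-cells. CNOT8 was then at −0.24 and XRN1 at −0.22, the opposite sign from their values with it, and neither was called. CNOT6L had 0.37 and CNOT6 0.26, and ZFP36L2 and ZFP36L1 were between −0.02 and 0.10. The median over all genes was −0.16 at this stage, and the share of called genes that were higher was 28.7% in FPKM as deposited, 56.1% with quantile normalization and 55.5% with the median ratio.

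Vitrified 4-cell replicate 3 was the highest or the lowest of the 6 4-cell libraries for 9 of the 10 genes, against 68.4% of all genes tested. It was the lowest for BTG4, CPEB1, CNOT7, CNOT6L, ZFP36L1 and ZFP36L2 and the highest for CNOT8, DCP1A and XRN1. For 7 of the 10 genes it lay beyond the other libraries in the direction of the difference of 4-cells from 2-cells, against 43.7% of all genes. The differences of this library from the mean of the other 5 ranged from −2.68 for BTG4 and −2.45 for CPEB1 to 1.15 for CNOT8 and 1.17 for DCP1A on the log2 scale. CNOT6, at −0.05, was the gene in which it did not stand out.

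**Figure D3:**
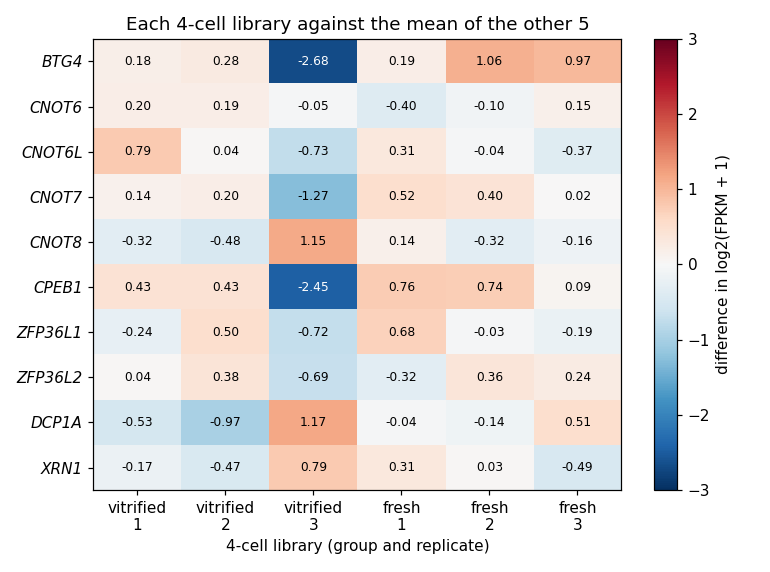
Difference in log2(FPKM + 1) of each 4-cell library (columns, vitrified then fresh, by replicate) from the mean of the other 5 libraries, for each gene (rows); red is higher, blue is lower. The column of vitrified replicate 3 holds the strongest values, from −2.68 for BTG4 to 1.17 for DCP1A, and CNOT6 is pale in it.

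In blastocysts, 2.26% of 7833 genes were called, 1 of them at an adjusted p under 0.05. BTG4, CPEB1, CNOT6 and CNOT6L were too low to be tested, since fewer than 3 of the 6 libraries reached 1 FPKM. Of the 6 genes tested, 3 had higher levels in every vitrified library than in any fresh library, against 17.3% of all genes higher and 5.27% lower without overlap. The same 3 had an unadjusted p under 0.05, as did 16.2% of all genes.

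These 3 genes were CNOT7, CNOT8 and DCP1A. CNOT7 had 13.9 ± 0.193 FPKM in vitrified and 8.63 ± 1.00 FPKM in fresh blastocysts (SD, n = 3 each), a log2 difference of 0.63 ± 0.17 (SE, limma unadjusted p = 0.0066, adjusted p = 0.16). CNOT8 had 11.5 ± 4.83 FPKM in vitrified and 5.72 ± 0.835 FPKM in fresh blastocysts, a log2 difference of 0.83 ± 0.30 (limma unadjusted p = 0.027, adjusted p = 0.25). DCP1A had 7.51 ± 0.968 FPKM in vitrified and 4.50 ± 0.478 FPKM in fresh blastocysts, a log2 difference of 0.63 ± 0.19 (limma unadjusted p = 0.011, adjusted p = 0.19). None passed the fold threshold, and none would pass after adjustment.

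The size of these differences shifted with the scale and with single libraries. With quantile normalization they were 0.45 for CNOT7, 0.64 for CNOT8 and 0.45 for DCP1A, with limma unadjusted p values of 0.031, 0.067 and 0.041, and the median over all genes was 0.11 in FPKM as deposited. CNOT8 was called without vitrified blastocyst replicate 3 (1.14, limma unadjusted p = 0.0023), the lowest vitrified library for this gene. Of the called genes 66.1% were higher in FPKM as deposited, 39.7% with quantile normalization and 37.2% with the median ratio. Trophectoderm markers summed to 2096-3481 FPKM in vitrified and 3709-4114 FPKM in fresh blastocysts, without overlap. None of these 7 markers was called, and their median log2 difference was −0.17, beside 0.11 for all genes. The part of the lower sum in the 3 differences was not tested. ZFP36L1 (0.31), XRN1 (0.09) and ZFP36L2 (−0.08) overlapped between vitrified and fresh blastocysts.

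**Figure D4:**
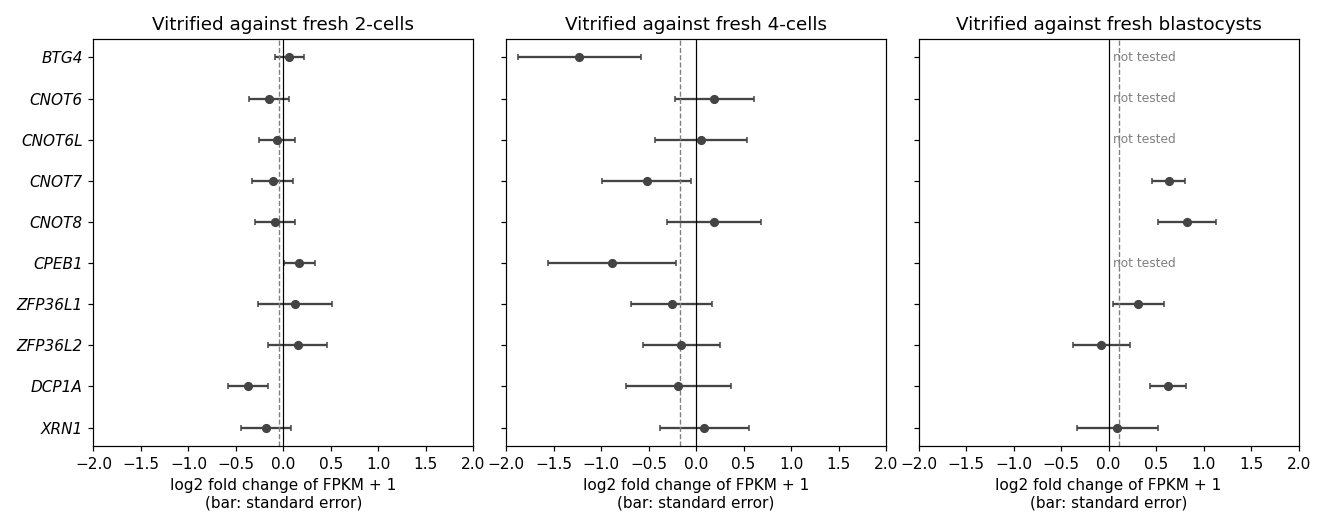
Log2 fold change of FPKM + 1 in vitrified against fresh embryos at each stage (points, with the standard error as a bar); the dashed line is the median of all genes tested, and genes too low to test are marked. BTG4 and CPEB1 lie left of 0 with wide bars in 4-cells, and CNOT7, CNOT8 and DCP1A lie at 0.63 to 0.83 in blastocysts.

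Whether the vitrified and the fresh embryos differed by unlike amounts at neighbouring stages was tested as an interaction over all 18 libraries. Between 4-cells and 2-cells, 0 of the 10 genes were called, against 5.67% of all genes, and none had an unadjusted p under 0.05, against 7.36% of all genes. BTG4 had −1.29 (limma unadjusted p = 0.067) and CPEB1 −1.05 (limma unadjusted p = 0.12). Both shrank without vitrified 4-cell replicate 3, to −0.48 for BTG4 (limma unadjusted p = 0.16) and −0.25 for CPEB1 (limma unadjusted p = 0.38). With that library kept, BTG4 was called without vitrified 4-cell replicate 1, vitrified 4-cell replicate 2 or fresh 4-cell replicate 1, at −1.67, −1.72 and −1.52. CPEB1 was called without either of these 2 vitrified libraries, at −1.45 and −1.46.

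Between blastocysts and 4-cells, 1 of the 10 genes was called, CNOT7, against 8.49% of all genes. A share this near that of all genes is no result about the 10 genes, and CNOT7 is given as a value. Its vitrified-to-fresh difference was more positive in blastocysts than in 4-cells by 1.15 ± 0.43 on the log2 scale (SE, limma unadjusted p = 0.016, adjusted p = 0.34). It fell short of the threshold with quantile normalization (1.00), the median ratio (0.77), weights per library (0.90) and without vitrified 4-cell replicate 3 (0.75). Without that library CNOT8 (1.07) and DCP1A (1.34) were called instead.

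Within each library, the ratio of related genes was also followed over the stages. CNOT6L was 2.37-3.44 times CNOT6 in 2-cells (median 2.78) and 1.88-4.60 times in 4-cells (median 2.80), and 0.642-1.46 times in blastocysts (median 0.901). CNOT7 was 3.96-7.56 times CNOT8 in 2-cells (median 5.31), 0.631-3.99 times in 4-cells (median 3.33) and 0.842-2.06 times in blastocysts (median 1.5). The ratio of 0.631 was that of vitrified 4-cell replicate 3, and every other 4-cell library had CNOT7 above CNOT8. ZFP36L1 had a median of 0.876 times ZFP36L2 in 2-cells, 0.845 times in 4-cells and 2.73 times in blastocysts, where all 6 ratios were above 1. These ratios were not tested, and how reads common to related genes were shared out was not examined.

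**Figure D5:**
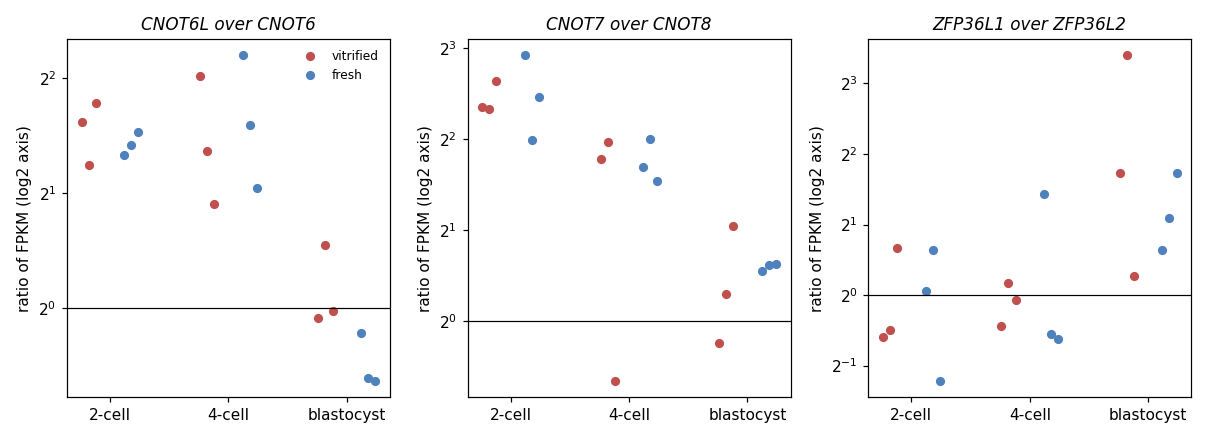
Ratio of FPKM of related genes in each library (log2 axis, with a line at 1), by stage, vitrified (red) left of fresh (blue). CNOT6L over CNOT6 drops to a median of 0.901 in blastocysts, CNOT7 over CNOT8 has a median of 5.31 in 2-cells and 1.5 in blastocysts, and ZFP36L1 over ZFP36L2 is above 1 in all 6 blastocysts.

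Over the 18 libraries, the genes whose log2(FPKM + 1) was most like that of BTG4 were FAM227B (Pearson r = 0.997), ISL1 (0.997) and CDH7 (0.996) of 9877 genes searched. Those most like CPEB1 were MFSD4A (0.998), CDH7 (0.997) and SSMEM1 (0.996). CNOT6L was closest to CCDC88A, KCTD9 and IGF2BP3, CNOT7 to ATG4A, WAC and CEP152, CNOT6 to UPF2, ETV5 and KAT6A, and all of these had an r of at least 0.979. CNOT8 was closest to MARCH7, HBS1L and CWC15, DCP1A to COQ10B, WDR36 and ALG13, and XRN1 to SF3B1, G2E3 and R3HCC1L. ZFP36L2 was closest to MESP2 (0.877), SYT2 and ATP2C2, and ZFP36L1 to SLC25A16 (0.771), KATNA1 and MAP7D1. The libraries share stage and treatment, so these values describe a common course over 3 stages.

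Among the 10 genes themselves, BTG4 and CPEB1 were the most alike (r = 0.995), and CNOT7 with CNOT6L (0.975) and CNOT6L with CNOT6 (0.972) came next. DCP1A and CNOT8, both highest in 4-cells, had an r of 0.930. ZFP36L1 had negative values with 8 of the other 9, down to −0.58 with DCP1A.

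Other genes of the pathway were read from lists. Of 107 list genes tested in 4-cells against 2-cells, 14 were higher and 11 lower (23.4% called, against 16.9% of all genes), and 11 and 10 without vitrified 4-cell replicate 3. Of all genes, 8.83% were higher and 8.09% lower in this comparison. Several counts of the single lists, which are short, lie near these shares and are given as values. In 4-cells against 2-cells, 2 of 5 other BTG and TOB adaptors rose and none fell, the opposite side from BTG4. BTG3 had a median of 36.2 FPKM in 4-cells against 1.04 FPKM in 2-cells (log2 change 3.99), and BTG1 13.8 FPKM in 4-cells against 0.860 FPKM in 2-cells (3.12). Of 7 further CCR4-NOT subunits only CNOT9 rose (3.31), with 16.2 FPKM in 4-cells against 1.12 FPKM in 2-cells. NOCT, a relative of the CCR4 deadenylases, was the 1 of 5 genes listed as other poly(A) nucleases that fell (−1.63). No nuclease activity was measured.

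The exosome and other exonucleases had 6 of 15 tested genes higher in 4-cells than in 2-cells, led by EXOSC3 (4.39), EXOSC10 (3.47) and EXOSC1 (2.42), and none lower, where 8.83% of all genes were higher. Without vitrified 4-cell replicate 3, 5 were higher and EXOSC8 (−1.06) was lower. Of 14 decapping genes none rose, and LSM5 (−1.18) and EDC3 (−1.05) fell, where 8.09% of all genes were lower. PABPC1, the somatic poly(A)-binding protein, rose by 3.03, while the oocyte proteins ZAR1 (−1.61), ZAR1L (−1.59) and PABPN1L (−1.48) fell. EIF4E, the cap-binding protein, also rose in that list of 17 tested genes (1.06). Among 14 sequence-specific and microRNA effectors, those that rose included YTHDF2 (1.19), which reads N6-methyladenosine, and of 8 nonsense-mediated decay genes UPF3B fell (−1.95). None of 8 genes of the terminal uridylation and poly(A) polymerase list, which also holds CPSF cleavage and polyadenylation factors, was called.

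Of 15 maternal transcripts known to be cleared in other mammals, OOEP (−2.60), OOSP2 (−1.70), MOS (−1.40) and H1FOO (−1.06) were lower in 4-cells and ZP4 (1.35) was higher. Of all genes, 8.09% were lower and 8.83% higher. Without vitrified 4-cell replicate 3, EDC3, EXOSC6, EIF4E, YTHDF2 and H1FOO were among the genes that no longer passed the threshold. BTG3, BTG1, CNOT9, EXOSC3, EXOSC10, EXOSC1, PABPC1, NOCT, LSM5, ZAR1, ZAR1L, PABPN1L, UPF3B, OOEP, OOSP2, MOS and ZP4 still did. The list medians in 4-cells against 2-cells were 0.82 for the BTG and TOB adaptors, 0.36 for the exosome list and −0.55 for the maternal transcripts, beside −0.06 for all genes. Without vitrified 4-cell replicate 3 they were 0.71, 0.06 and −0.45, beside −0.03 for all genes, so the exosome median rested on that library.

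In blastocysts against 4-cells, 13 of the 107 list genes were higher and 53 lower (61.7% called, against 61.8% of all genes). Without vitrified 4-cell replicate 3 the counts were 15 and 52. Of all genes, 24.8% were higher and 37% lower. A total this near that of all genes is no result about the lists together. All 15 maternal transcripts tested were lower, led by H1FOO (−9.90), WEE2 (−9.13) and ZP4 (−8.55), and their median was −6.89. H1FOO, the oocyte linker histone, had a median of 0.461 FPKM in blastocysts against 1711 FPKM in 4-cells. Of 17 tested genes for poly(A) binding and translational repression, 11 fell, among them ZAR1L (−4.58), IGF2BP3 (−4.45) and EIF4E1B (−4.21), while PABPC1 (3.06) and PABPC4 (3.04) rose. Of 8 nonsense-mediated decay genes 6 fell, with UPF3A (−4.45), UPF2 (−3.17) and SMG6 (−1.89) in front, and none rose.

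The remaining lists in blastocysts against 4-cells stand beside 24.8% of all genes higher and 37% lower. Several of their counts lie near these shares and are given as values. CNOT4 (−4.21), CNOT2 (−2.08) and CNOT9 (−2.03) fell among 7 further CCR4-NOT subunits, and PARN (−2.92) and PAN3 (−2.85) among 5 genes listed as other poly(A) nucleases. TOB2 (−1.42) and BTG1 (−1.30) fell among 5 adaptors, whose median was −1.11. That median was −0.56 without vitrified 4-cell replicate 3, and BTG2 (1.15) and TOB1 (1.33) were called higher beside the 2 lower ones. Among 8 genes of the uridylation and poly(A) polymerase list, TUT7 (−3.23), TENT4A (−2.10) and TENT2 (−1.37) fell. CPSF1 (2.51), a cleavage and polyadenylation factor held in that list, rose. TENT2 was not called without vitrified 4-cell replicate 3. Decapping was mixed: of 14 genes, DCP2 (−3.12), the decapping enzyme itself, LSM14A (−1.80) and LSM7 (−1.79) fell and 4 rose, led by LSM4 (3.59), LSM5 (2.80) and LSM2 (2.37). The exosome list was mixed as well, with 5 of 15 higher, led by EXOSC4 (2.81), EXOSC2 (2.08) and EXOSC8 (1.73), and 4 lower, led by DIS3 (−2.16), EXOSC3 (−1.75) and EXOSC1 (−1.75). Among 14 sequence-specific and microRNA effectors ZFP36 (1.61), the relative of ZFP36L1, rose, and AGO2 (−1.82), SAMD4B (−1.74) and YTHDF2 (−1.68) led the 4 that fell.

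Between vitrified and fresh embryos, 3 genes of these lists were called, all in 4-cells, where they were 2.91% of 103 list genes tested, against 3.46% of all genes. None of 100 was called in 2-cells and none of 83 in blastocysts. A share this near that of all genes is no result about the lists, and the 3 genes are given as values. PABPN1L, an oocyte poly(A)-binding protein, had 7.55, 6.79 and 6.21 FPKM in vitrified and 2.15, 3.20 and 2.63 FPKM in fresh 4-cells, a log2 difference of 1.11 (limma unadjusted p = 0.024, adjusted p = 0.95). ZP3, a zona pellucida protein, had 21.5, 20.6 and 16.3 FPKM in vitrified and 44.7, 43.9 and 54.1 FPKM in fresh 4-cells (−1.25, limma unadjusted p = 0.013, adjusted p = 0.95). LSM4, of the ring that binds deadenylated mRNA with LSM1, had 3.66, 11.9 and 10.7 FPKM in vitrified and 21.7, 14.6 and 22.3 FPKM in fresh 4-cells (−1.18, limma unadjusted p = 0.0495, adjusted p = 0.95). In all 3 the treatments did not overlap, as in 2.81% of all genes on the higher and 8.34% on the lower side. They had 1.17, −1.13 and −1.38 without vitrified 4-cell replicate 3 and were again the 3 list genes called. The 5 other BTG and TOB adaptors had a median log2 difference of 0.92 in 4-cells, beside −0.16 for all genes, with 0 of 5 called, and 0.32 without vitrified 4-cell replicate 3. Their values were uneven, with BTG3 at 78.0, 7.20 and 251 FPKM in vitrified and 10, 11.5 and 60.9 FPKM in fresh 4-cells.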

How the data were processed

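Cloned pig embryos were sequenced as 18 libraries, 3 per treatment and stage, which the study states to be biological replicates. Per the study's methods and the submitters' processing notes, the authors trimmed reads with Cutadapt, checked them with FastQC, aligned them with Bowtie2 and HISAT2, and had StringTie compute the FPKM values deposited for each library and gene. Tool versions, genome build and annotation are not given in the sources used here. The methods name the SMART-Seq v4 kit, which primes on poly(A) tails, whereas the labels describe a small RNA kit. FPKM tables hold no counts, so the depth behind a value is unknown and precision was read from the spread between libraries. The deposited tables also hold the authors' own fold changes, p-values and q-values for vitrified against fresh embryos, which were not used. A value of 0 is listed as 0.0001.

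Of 6907 genes without a symbol, 951 were named from NCBI RefSeq (Sscrofa11.1) by identifier, XRN1 among them. Values were tested as log2(FPKM + 1) with limma 3.58.1 (trend) in R 4.3.3; descriptions used Python 3.11.15. Genes needed 1 FPKM in at least 3 libraries of the fit. Vitrified and fresh embryos were compared within a stage with 6 libraries, and stages and interactions in a single fit with 18 libraries and 6 group means. Adjusted p-values are Benjamini-Hochberg over all genes tested. The fits were tested on simulated data. For each gene the simulation used the same spread at every stage, with no library standing apart. It therefore cannot show how the fits handle the uneven 4-cell libraries.

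The text names the 10 genes in every library, from each list up to 3 called genes per direction with the largest change, and the 3 genes most like each of the 10. Genes that gained or lost a call without vitrified 4-cell replicate 3, single stage markers, and BTG3 in the treatment comparison, were picked with their values known. The genes and lists were chosen with earlier results of these data known. The sources do not say that replicate numbers pair libraries. After group means were removed, same-numbered libraries correlated at 0.22, 0.37 and 0.42 in 4-cells, so the blocked count stands beside that result. At the other stages at least 1 correlation was under 0.1. The alternatives were to add 0.1 FPKM, to drop the filter or raise it to a mean of 5 FPKM, to scale by quantiles or by the median ratio, to fit the replicate number as a block, to weight libraries, to fit all 18 libraries together or each treatment alone, and to leave out each library. List counts without vitrified 4-cell replicate 3 and the DCP1A interaction were added after seeing the data. The result of 1 gene of the pathway lists is not reported here by name.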

Additional observations from a re-analysis of the deposited data

Results flagged for a closer look

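CNOT7 was flagged because the difference between vitrified and fresh embryos was unlike in 2 neighbouring stages. The log2 difference was 0.63 in blastocysts and −0.52 in 4-cells, or −0.12 in 4-cells without vitrified 4-cell replicate 3. The interaction was 1.15 (limma unadjusted p = 0.016, adjusted p = 0.34), and 0.75 without vitrified 4-cell replicate 3 (limma unadjusted p = 0.023). With quantile normalization it was 1.00 (limma unadjusted p = 0.076) and with the median ratio 0.77 (limma unadjusted p = 0.083), both short of the threshold. Of all genes, 8.49% were called in this interaction, so 1 call among the 10 genes lies near that share and is given as a value.

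DCP1A stood out because its vitrified libraries lay on opposite sides of the fresh ones at 2 stages, above them in all 3 vitrified blastocysts (log2 difference 0.63) and below them in all 3 vitrified 2-cells (−0.38). The interaction between blastocysts and 2-cells, chosen after this was seen, was 1.00 (limma unadjusted p = 0.061, adjusted p = 1.00), which missed the threshold. Across the alternatives and single libraries left out it ranged from 0.72 (scaling by the median ratio) to 1.13 (0.1 FPKM added). It was 0.74 with quantile normalization and 0.94 with weights per library (limma unadjusted p = 0.0011, adjusted p = 0.070). At this comparison 1.84% of all genes were called. Of all genes, 5.72% were lower without overlap in vitrified 2-cells and 17.3% higher in vitrified blastocysts. The share with both was not counted.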

How the results depend on the processing

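No result changed direction as a called value. Of the log2 changes of the 10 genes, the 8 lower calls in blastocysts against 4-cells held under all alternatives. In 4-cells against 2-cells the number of the 10 genes called, 3 as reported, was 1 with weights per library and 1 in fresh libraries only, and 1 to 4 with single libraries left out. In vitrified against fresh 4-cells it was 0 as reported, 1 with all 18 libraries in 1 fit, and 0 to 1 with single libraries left out, as in blastocysts. In the interaction of blastocysts and 4-cells it was 1 as reported, 0 with quantile normalization, 0 with the median ratio and 1 to 2 with single libraries left out. In that of 4-cells and 2-cells it was 0 to 2.

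Counts over all genes moved more. A mean of at least 5 FPKM gave 4175 calls in blastocysts against 4-cells (7020 as reported), 146 in vitrified against fresh 4-cells (303), 343 in the interaction of 4-cells and 2-cells (644) and 587 in that of blastocysts and 4-cells (964), where fewer genes are tested. Adding 0.1 FPKM gave 99 calls in vitrified against fresh 2-cells (38) and 363 in blastocysts (177). Weights per library gave 88 in 2-cells, all 18 libraries in 1 fit gave 672 in 4-cells, and fresh libraries alone gave 968 in 4-cells against 2-cells (1922). Leaving out single libraries gave 43 to 116 in 2-cells (116 without fresh replicate 1), 152 to 722 in 4-cells (152 without fresh replicate 2, 722 without vitrified replicate 2) and 161 to 293 in blastocysts (293 without vitrified replicate 3). The interactions then gave 521 to 1516 and 759 to 1822 calls, both highest without vitrified 4-cell replicate 2. The cause of these shifts was not tested.

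With the replicate number as a block, vitrified against fresh 4-cells had 486 calls in place of 303. The replicate block changed no other count by over 1.5 times and no call among the 10 genes. In 2-cells the same-numbered libraries correlated at 0.03, −0.11 and 0.11, and in blastocysts at 0.25, 0.05 and 0.00. The share of called genes that were higher in vitrified 2-cells was 39.5% as reported, 62.9% with quantile normalization and 50% with the median ratio. It was 78.6%, 48.6% and 40% in the interaction of blastocysts and 4-cells.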
